A study of Homo sapiens with 2 samples.

Results

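HLA-B low and HLA-B high cells of the triple-negative breast cancer line HCC38 were compared within 1 culture. The cells were chosen by a measured value, the number of HLA-B UMIs (unique molecular identifiers, each standing for 1 captured transcript) per 10000 gene UMIs of a cell. The lowest quartile of cells formed the HLA-B low group (599 cells) and the highest quartile the HLA-B high group (599 cells), out of 2393 HCC38 cells that met the filters and 17605 deposited barcodes. The filters were at least 10000 gene UMIs, at most 20% mitochondrial UMIs and a multiplexing oligo that made up at least 80% of the oligo UMIs. The deposited data come from single-cell RNA sequencing of 6 breast cancer lines, each stained with its own lipid-anchored oligo and loaded as 2 pools of 3 lines, with HCC38 at passage 5 beside MDA-MB-436 and Hs578T. No treatment is named in the labels, HLA-B low and HLA-B high cells went through the same tube and capture, and no culture of HCC38 was repeated. No p-value is therefore given, and cells are not used as replicates of the culture. Every interval below is a 95% interval. For a ratio it covers counting error only. For a share of cells it treats each cell as 1 draw from this culture and says nothing of other cultures.

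HLA-B encodes a heavy chain of MHC class I, the surface complex that shows peptides from inside the cell to cytotoxic T cells. The heavy chain needs beta-2 microglobulin, the product of B2M, and a peptide that is cut by the proteasome, carried into the endoplasmic reticulum by TAP1 and TAP2 and loaded with the help of tapasin. Transcription of these genes is known to be raised by interferons, through IRF factors and the regulator NLRC5, and by NF-kB. Cells with low class I are less visible to T cells, which is why its level within a tumour cell population is of interest.

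The promoters of HLA-B, HLA-C, B2M and AREG are shown because the first 3 belong to genes whose transcripts were low together and the fourth to a gene that was high in the same cells. They are RefSeq reference sequences on GRCh38.p14, from 250 bases before to 50 bases after the start of transcription, written 5′ to 3′ on the strand of the gene. The alleles of HCC38 itself were not read. HLA-B lies on the minus strand at chr6:31357130-31357429, HLA-C on the minus strand at chr6:31272043-31272342, B2M on the plus strand at chr15:44711267-44711566 and AREG on the plus strand at chr4:74444886-74445185. Capitals mark matches to 3 motifs searched on both strands, the IRF core AANNGAAA, the kB motif GGGNNTTCC and the cAMP response element TGACGTCA.
HLA-B: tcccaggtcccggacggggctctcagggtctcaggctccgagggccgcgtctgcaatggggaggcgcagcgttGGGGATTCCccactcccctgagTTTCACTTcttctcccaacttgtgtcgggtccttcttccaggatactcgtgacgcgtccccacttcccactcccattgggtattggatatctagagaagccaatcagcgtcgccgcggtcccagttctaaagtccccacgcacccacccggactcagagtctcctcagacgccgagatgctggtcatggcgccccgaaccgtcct
HLA-C: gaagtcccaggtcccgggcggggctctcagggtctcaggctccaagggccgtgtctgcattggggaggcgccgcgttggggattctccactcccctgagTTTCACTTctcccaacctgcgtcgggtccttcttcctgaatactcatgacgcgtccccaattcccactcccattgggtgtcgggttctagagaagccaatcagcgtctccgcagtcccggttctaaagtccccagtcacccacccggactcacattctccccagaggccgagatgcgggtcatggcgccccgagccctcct
B2M: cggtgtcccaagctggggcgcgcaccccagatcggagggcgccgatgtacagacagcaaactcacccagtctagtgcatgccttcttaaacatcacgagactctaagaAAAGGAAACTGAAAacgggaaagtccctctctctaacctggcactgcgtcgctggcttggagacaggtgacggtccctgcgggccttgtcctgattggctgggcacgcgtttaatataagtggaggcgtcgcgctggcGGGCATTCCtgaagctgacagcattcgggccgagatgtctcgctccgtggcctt
AREG: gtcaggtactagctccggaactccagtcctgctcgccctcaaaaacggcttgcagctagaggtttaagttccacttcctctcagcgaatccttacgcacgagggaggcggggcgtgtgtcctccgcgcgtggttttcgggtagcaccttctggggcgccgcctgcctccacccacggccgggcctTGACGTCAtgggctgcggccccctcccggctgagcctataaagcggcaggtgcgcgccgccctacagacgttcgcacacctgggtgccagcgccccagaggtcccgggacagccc
HLA-B held an IRF core at positions -155 to -148 from the start site and a kB motif at -177 to -169, and HLA-C an IRF core at -151 to -144 and no kB match. B2M held IRF cores at -142 to -135 and -136 to -129, which overlap, and a kB match at -4 to 4. AREG held a cAMP response element at -65 to -58 and neither of the other motifs. The share of all 27305 genes in the table with a match in any of their promoters was 26.7% for the IRF core, 7.95% for the kB motif and 2.25% for the cAMP response element. A match is a run of letters and does not show that a factor binds there.

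HLA-B varied between HCC38 cells far beyond counting. Its variance was 23.5 in squared units of HLA-B UMIs per 10000, against 1.77 expected from counting alone, a ratio of 13.2. The same ratio was 12.2 in MDA-MB-231, 9.34 in Hs578T and 3.72 in MDA-MB-436. Within HCC38 the median was 1.53 HLA-B UMIs per 10000 in the lowest quartile, 3.66 in the second, 6.12 in the third and 10.5 in the highest. HLA-B low cells ran from 0 to 2.59, and HLA-B high cells from 7.84 to 52.99. The nearest cell outside lay at 2.59 above the low group and at 7.83 below the high group, so both borders cut through a continuous range. A change of 1 HLA-B UMI would move 147 cells across the lower border and 94 across the upper. Of the low cells, 11 had no HLA-B UMI at all. The summed level of HLA-B was 151 CPM (counts scaled to 1000000 gene UMIs) in HLA-B low cells and 1190 CPM in HLA-B high cells, a difference that the choice of cells made and that supports nothing.

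**Figure D1:**
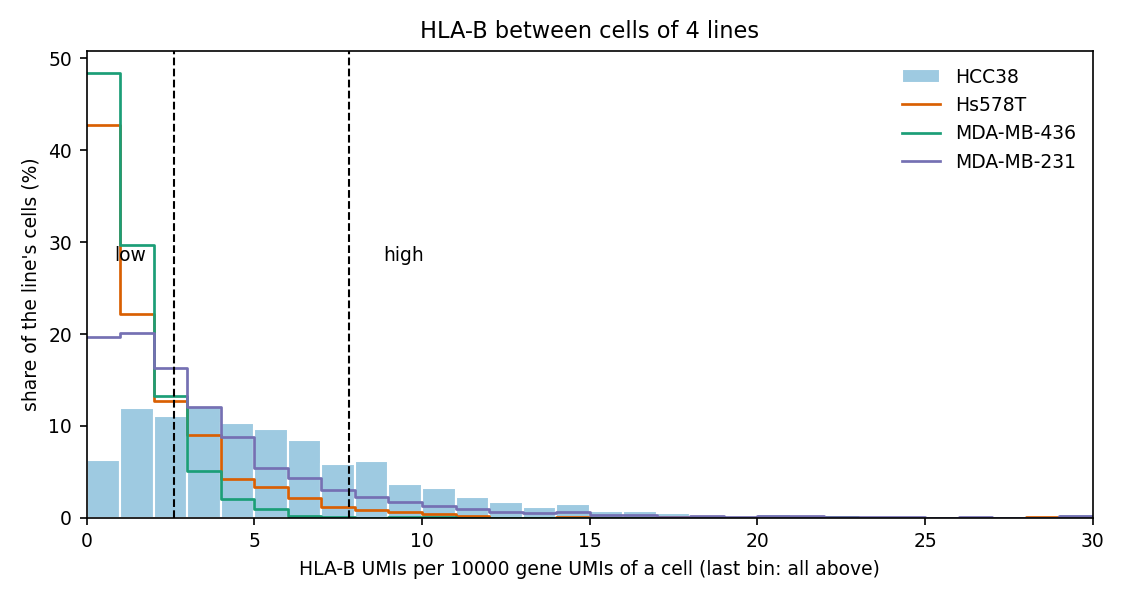
HLA-B UMIs per 10000 gene UMIs of a cell (x axis) against the share of each line's cells in percent (y axis), with HCC38 as bars and Hs578T, MDA-MB-436 and MDA-MB-231 as lines. The dashed lines mark the borders of the low group (2.59) and the high group (7.84), and the HCC38 bars show 1 broad range without a gap at either border.

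Both groups carried the transcripts by which their oligo was matched to HCC38. KRT81, SERPINB5 and CDH3 served for that match, so their levels do not test it. The hair-type keratin KRT81 was at 1616 CPM in HLA-B low cells and 3600 CPM in HLA-B high cells, against 24.6 CPM in Hs578T and 28.95 CPM in MDA-MB-436 of the same capture. The serpin SERPINB5 was at 69.4 CPM in low and 82.6 CPM in high cells, and P-cadherin (CDH3) at 54.5 and 66.4 CPM, all under 1 CPM in the other 2 lines. The basal keratins KRT5, KRT14 and KRT17 were low in both groups (2.87, 3.31 and 1.74 CPM in low cells and 19.1, 3.74 and 7.11 CPM in high cells), so a basal-like name would rest on other genes. Summed markers of Hs578T were at 115 CPM in low and 105 CPM in high cells, against 2574 CPM in Hs578T. Those of MDA-MB-436 were at 480 CPM in low and 503 CPM in high cells, nearly all of it UCHL1 (442 and 449 CPM). Summed markers of immune cells were at 0.0436 CPM in low and 0.0450 CPM in high cells, with 3 of the 5 markers at 0.

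The groups differed little in depth. The median was 35826 gene UMIs and 6452 genes per cell in HLA-B low cells and 33225 gene UMIs and 6401 genes in HLA-B high cells. The median mitochondrial share was 6.65% in low and 5.49% in high cells, and the median oligo count 10571 in low and 8902 in high cells. Cells called doublets, or holding another line's transcripts, numbered 22 among low and 13 among high cells. No barcode sequence was shared between HCC38 and the other lines of its capture. The part of depth and mitochondrial share in the results was measured only through the alternative groupings given at the end. That of the oligo count was not measured.

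Across the 6640 other genes that reached 20 CPM in either group, the median log2 ratio of HLA-B low over HLA-B high cells was -0.02. Ratios were taken on log2(CPM + 1), and a gene is called lower or higher where it passed 1.5-fold. A gene that reached 20 CPM in only 1 group entered because it was high there, which favours a call in that direction. In HLA-B low cells 396 genes were called lower, 5.96% of those measured, and 243 called higher, 3.66%. These shares are the background for every count of called genes in a list over all HCC38 cells below. Past 2-fold there were 133 lower and 59 higher genes. With TMM scaling, which moves the median of all genes by 0.08, 294 genes were lower and 351 higher. Among genes of at least 50 CPM the lowest ratios were those of CCL5, GBP4, PLAAT4 and APOE, and the highest those of TGFBR1, EREG and TRIB1. Of 81 described genes past 1.5-fold, 70 changed in one direction over all 4 quartiles.

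**Figure D2:**
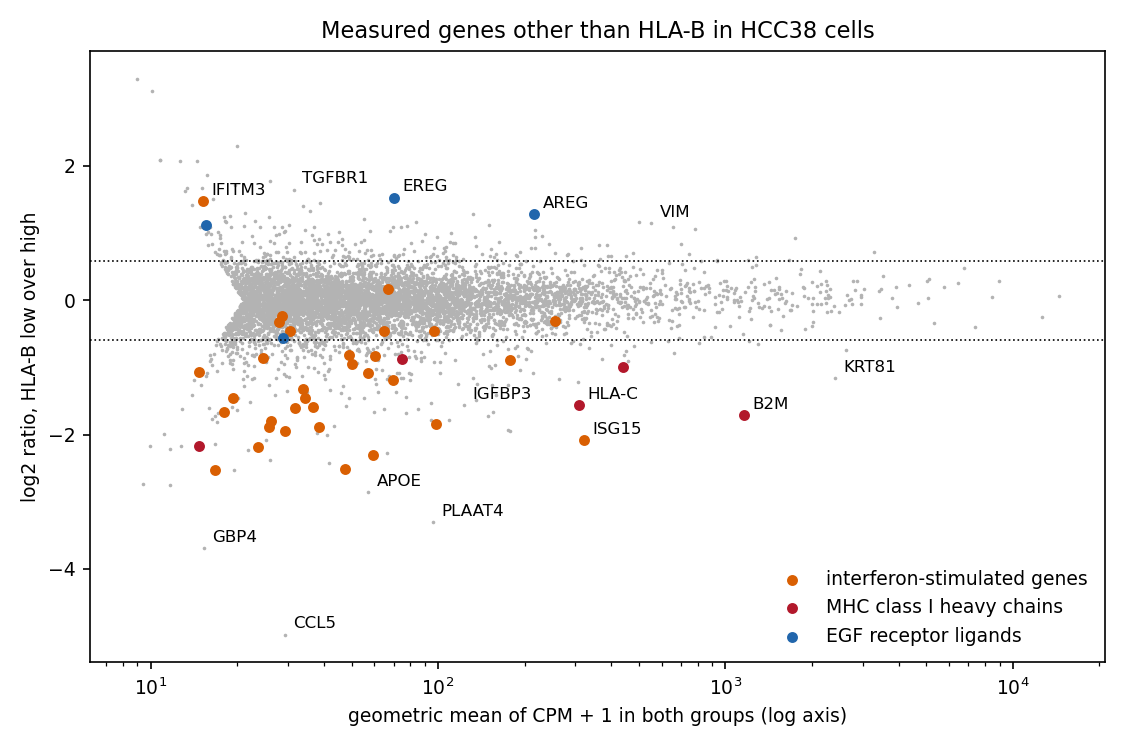
Each point is 1 of the 6640 measured genes, with the geometric mean of CPM + 1 in both groups on a log x axis and the log2 ratio of HLA-B low over HLA-B high cells on the y axis, and dotted lines at 1.5-fold. Class I genes (red) and most interferon-stimulated genes (orange) lie below the lower line, with CCL5 lowest at -4.98, and 3 of 4 EGF receptor ligands (blue) lie above the upper line.

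All 5 measured class I genes were called lower in HLA-B low cells, against 5.96% of all genes, with a median log2 ratio of -1.56. B2M, the light chain shared by all class I molecules, was at 638 CPM in the lowest quartile, 936 in the second, 1296 in the third and 2096 in the highest. Its ratio was 0.304 (95% interval 0.299 to 0.310), a log2 ratio of -1.71. B2M lies on another chromosome than the heavy chains, and 1.00% of low cells lay above the median of high cells. The classical heavy chain HLA-C was at 179 CPM in low and 530 CPM in high cells (log2 ratio -1.56). The heavy chain HLA-E, a ligand of NK cell receptors, was at 54.7 CPM in low and 101 CPM in high cells (-0.87). HLA-F was at 5.92 CPM in low and 30.2 CPM in high cells (-2.17), so it was measured through the high group only. HLA-B and HLA-C have overlapping gene models on the minus strand and similar sequences, and how their reads were divided is not known, so the HLA-C value is less certain than that of B2M.

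Of 13 measured genes of peptide cutting and loading, 6 were called lower and none higher, with a median log2 ratio of -0.58. The peptide transporter subunit TAP1 was at 28.7 CPM in low and 80.5 CPM in high cells (log2 ratio -1.46) and TAP2 at 22.0 and 36.6 CPM (-0.71). The immunoproteasome subunits PSMB9 (98.3 CPM in low and 238 CPM in high cells, -1.27) and PSMB8 (51.9 and 119 CPM, -1.19) were lower. The third of them, PSMB10, was at 73.7 CPM in low and 55.9 CPM in high cells (0.39, not called). The trimming peptidase ERAP2 (-0.92) and the proteasome activator PSME1 (-0.59) completed the list of lower genes. Tapasin (TAPBP, -0.58) lay just under the threshold. The general chaperones of the endoplasmic reticulum were close to level, with PDIA3 at -0.07, CALR at 0.16 and HSPA5 at 0.16. The immunoproteasome subunits were thus not called together, and the proteasome activator PSME2 (-0.48) was not called either. Whether a response to interferon separates the genes called lower from the others was not tested.

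Interferon-stimulated genes were lower as a group. Of 32 measured, 24 were called lower and 1 higher, with a median log2 ratio of -1.26. Some of these, such as IFIT3 and EPSTI1, reached 20 CPM in high cells only, and how many did was not counted. Summed over all 51 listed genes in the data, without that filter, the level was 1389 CPM in low and 3212 CPM in high cells. The ubiquitin-like modifier ISG15 was at 156 CPM in low and 663 CPM in high cells (log2 ratio -2.08). The antiviral gene IFIT3 was at 18.9 and 113 CPM (-2.52), OASL at 25.6 and 131 CPM (-2.31) and EPSTI1 at 5.97 and 39.1 CPM (-2.53). The RNA sensor DDX60, outside the list, was at 18.1 CPM in low and 74.4 CPM in high cells (-1.98), and the exonuclease ISG20 at 13.9 and 56.7 CPM (-1.95). The exception was IFITM3, a membrane protein that blocks virus entry, at 24.3 CPM in low and 8.15 CPM in high cells (1.47), a gene with close relatives whose reads may be shared. PLSCR1 was at 0.16. Of 6 measured interferon receptors and signalling genes none was called in either direction, with IFNGR2 at -0.27 and IFNGR1 at -0.02. In the reference, 35 of the 39 interferon-stimulated genes with a promoter in the table (89.7%) held the IRF core, against 26.7% of all genes, and 4 of 5 class I genes did. The kB motif was held by 3 of the 39 (7.69%), against 7.95% of all genes. These shares describe the sequences of a list chosen for interferon response. They do not bear on what differed between the groups.

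The interferon-stimulated level was shifted across the cells, and some of the genes were also concentrated in few cells. Summed interferon-stimulated transcripts had a median of 11.97 per 10000 UMIs in low cells (middle range 9.82 to 15.4) and 21.1 in high cells (15.6 to 31.5). Of the 120 HCC38 cells in the top 5% of this sum, 6 were in the lowest quartile, 18 in the second, 23 in the third and 73 in the highest. The 30 highest cells of a group held 84.1% of IFIT3 UMIs in the low group and 72.9% in the high group, but 25.3% and 33.7% of ISG15 UMIs and 30.3% and 40.8% of ISG20 UMIs. Without those 120 cells, and with quartiles taken anew, 386 genes were called lower and B2M was at -1.62, against -1.71 with all cells.

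CCL5, a chemokine that draws T cells, had the lowest ratio of all genes. It was at 4.22 CPM in the lowest quartile, 6.87 in the second, 21.0 in the third and 164 in the highest, a ratio of 0.0258 (95% interval 0.0209 to 0.0316). The 30 highest cells held 75.8% of the CCL5 UMIs of the high group. After thinning every cell to 10000 UMIs, 1.67% of low cells and 18.7% of high cells had a CCL5 UMI, against 0.818% of Hs578T cells and 3.00% of MDA-MB-436 cells. The guanylate-binding protein GBP4 was at 3.27 CPM in low and 54.2 CPM in high cells (log2 ratio -3.69), and the phospholipase PLAAT4 at 29.7 and 302 CPM (-3.30). BIRC3, an NF-kB target that restrains cell death, was at 17.1 and 95.9 CPM (-2.42). The acute-phase gene SAA1 was at 3.48 CPM in low and 29.3 CPM in high cells (-2.76), with 86.9% of the UMIs of the high group in 30 cells. Of 12 measured NF-kB and cytokine genes 4 were called lower and 2 higher, the chemokine CXCL1 at 108 CPM in low and 50.01 CPM in high cells (1.09) and IER3 at 0.66. The list therefore did not move as a whole (median -0.34).

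APOE, a lipid carrier, was at 20.3 CPM in the lowest quartile, 66.3 in the second, 114 in the third and 153 in the highest. Its ratio was 0.132 (95% interval 0.120 to 0.146), a log2 ratio of -2.85. An APOE UMI was found in 13.7% of low cells and 61.1% of high cells after thinning, against 1.87% of Hs578T and 1.72% of MDA-MB-436 cells. Its neighbour APOC1 was at 41.8 CPM in low and 85.8 CPM in high cells (-1.02). The apolipoprotein CLU was at 66.5 and 76.9 CPM (-0.21), and the sterol receptor NR1H2 at 0.02. None of 20 measured cholesterol and fatty acid synthesis genes was called, with a median of 0.11.

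IGFBP3, a secreted binder of insulin-like growth factors, was at 70.6 CPM in the lowest quartile, 170 in the second, 225 in the third and 211 in the highest. The difference therefore lay between the lowest quartile and the others (ratio 0.335, 95% interval 0.317 to 0.355, log2 ratio -1.56). The 30 highest cells held 52.2% of the IGFBP3 UMIs in the low group and 39.2% in the high group. Of 8 measured genes of the IGF list, 5 were called lower and 1 higher. IGFBP2 was at 7.88 CPM in low and 29.2 CPM in high cells (-1.77), IGFBP6 at 113 and 270 CPM (-1.26), IGFBP7 at 25.9 and 59.6 CPM (-1.17) and IGFBP4 at 36.9 and 71.3 CPM (-0.93). The receptor IGF1R was at 31.3 CPM in low and 19.0 CPM in high cells (0.69). IGFBP5 stood at 0.19, with 92.4% of its UMIs in the low group in 30 cells.

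EGF receptor ligands went the other way. AREG, which encodes amphiregulin, was at 337 CPM in the lowest quartile, 226 in the second, 145 in the third and 138 in the highest (ratio 2.45, 95% interval 2.35 to 2.55, log2 ratio 1.29). Its median per cell was 1.62 UMIs per 10000 in low cells and 0.523 in high cells, and 72.6% of low cells lay above the median of high cells. EREG (epiregulin) was at 118 CPM in low and 40.2 CPM in high cells (1.53) and EPGN (epigen) at 21.9 and 9.54 CPM (1.12), all 3 of them neighbours on chromosome 4. The fourth measured ligand, TGFA, was at 22.9 CPM in low and 34.1 CPM in high cells (-0.56). Thus 3 of 4 measured ligands were called higher, against 3.66% of all genes. EPGN reached 20 CPM in low cells only, which favours its call, and the count treats the 3 neighbours as separate genes.

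Early response genes, which switch on within minutes of a growth or stress signal, were partly higher. Of 13 measured, 5 were called higher and none lower. The phosphatase DUSP1 was at 55.8 CPM in low and 21.7 CPM in high cells (1.33), and FOS at 206 and 84.0 CPM (1.28). EGR1 (-0.06) and JUNB (-0.02) were level, so the class did not move together. Of 8 ERK feedback genes, 2 were called lower, SPRY2 at 8.71 and 22.2 CPM (-1.26) and cyclin D1 (CCND1) at 502 and 868 CPM (-0.79), and IER3 was called higher.

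ANKRD1, a target of YAP and TAZ, did not reach 20 CPM in either group. It was at 8.97 CPM in the lowest quartile, 5.32 in the second, 13.7 in the third and 12.5 in the highest, and 30 cells held 100% of its UMIs in the low group and 87.7% in the high group. Of 17 measured YAP and TAZ targets, 7 were called lower and none higher, with a median of -0.44. Tissue factor (F3) was at 42.1 CPM in low and 137 CPM in high cells (-1.68) and the receptor kinase AXL at 49.4 and 112 CPM (-1.16), whereas MYOF (-0.04) and TGFB2 (-0.09) were level.

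Few cell-cycle genes were called, but the lists leaned in opposite directions. Of 41 measured G1/S genes, 1 was called lower and 2 higher, with a median of 0.28 and 6 genes below 0. Of 55 G2/M genes, 4 were called lower and none higher, with a median of -0.23 and 44 genes below 0. The replication genes CDC45 and POLD3 both stood at 0.61. The mitotic phosphatase CDC25C was at 19.7 and 38.1 CPM (-0.92) and the cyclin CCNB2 at 61.5 and 110 CPM (-0.83). Summed G2/M transcripts had a median of 64.2 per 10000 UMIs in low and 69.3 in high cells. Histone genes went both ways, HIST1H1C at -0.75 and HIST1H1D at 0.76. With quartiles taken within deciles of the summed cell-cycle share, 354 genes were lower and B2M was at -1.67.

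Epithelial genes were partly lower, and mesenchymal genes were split. Of 39 measured basal and epithelial genes, 15 were called lower and none higher, with a median of -0.29. The surface glycoprotein CD24 was at 86.6 CPM in low and 276 CPM in high cells (-1.66), the protease inhibitor SLPI at 36.1 and 113 CPM (-1.63), and E-cadherin (CDH1) at 65.9 and 119 CPM (-0.84). KRT81 was at -1.16, while KRT19 (0.11) and the desmosomal cadherin DSC2 (0.11) were level. Of 24 measured mesenchymal genes, 6 were called lower and 5 higher. Smooth muscle actin (ACTA2) was at 19.5 CPM in low and 81.1 CPM in high cells and S100A4 at 49.5 and 106 CPM (-1.08). Vimentin (VIM) was at 820 and 370 CPM (1.15), N-cadherin (CDH2) at 38.5 and 18.9 CPM (0.99) and the collagen COL12A1 at 26.9 and 8.78 CPM (1.51). VIM was unevenly spread, with 44.1% of its UMIs in the low group and 55.4% in the high group in 30 cells, and Hs578T of the same capture held 6850 CPM. Without doublets and mixed cells VIM was at 1.01 and CDH2 at 0.88.

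Other genes at the ends of the range were the lncRNA UCA1 (10.4 CPM in low and 58.4 CPM in high cells, -2.38), the hair-type keratin KRT86 (29.2 and 146 CPM, -2.28) and the gluconeogenic enzyme FBP1 (11.2 and 50.8 CPM, -2.09). The protease inhibitor CST6 was at 89.5 and 348 CPM (-1.95). On the higher side TGFBR1, a receptor of TGF-beta, was at 54.7 CPM in low and 16.8 CPM in high cells (1.65). The TGF-beta target ID3 was at 1136 and 542 CPM (1.07), but 13 of 15 measured TGF-beta response genes were not called. The pseudokinase TRIB1 (63.1 and 22.5 CPM, 1.45), the monocarboxylate carrier SLC16A7 (54.3 and 19.9 CPM, 1.41), the serine synthesis enzyme PHGDH (220 and 101 CPM, 1.12) and the phospholipid-binding ANXA1 (750 and 334 CPM, 1.16) were also higher. SERPINA3 was at 1.17, ISCA1 at 1.21, TRIM33 at 1.11 and MFSD12 at 1.09.

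**Figure D3:**
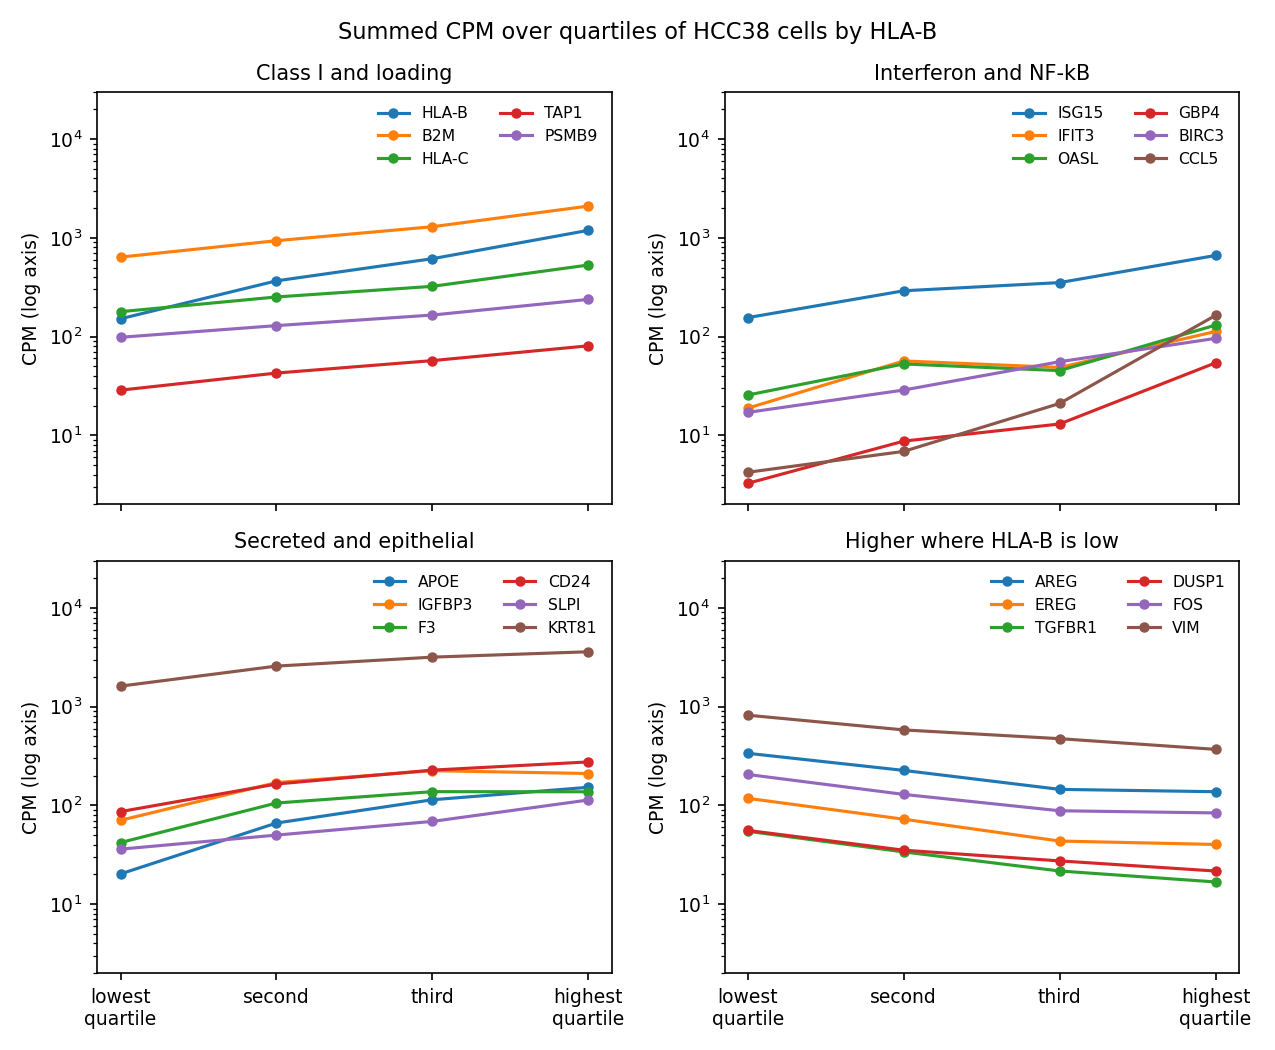
Summed CPM on a log axis (y) over the 4 quartiles of HCC38 cells ordered by HLA-B (x), for 23 genes in 4 panels, each point being 1 sum over 597 to 599 cells. Class I genes climb at each step, CCL5 and GBP4 climb most between the third and the highest quartile, APOE and IGFBP3 between the lowest and the second, and AREG and TGFBR1 decline.

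The differences were also arranged along chromosomes. The 6640 genes were placed on GRCh38 with GENCODE release 29 and grouped into 167 blocks of up to 40 neighbouring measured genes. Of these, 9 blocks on 5 chromosomes had a median log2 ratio of 0.25 or more and 21 blocks on 7 chromosomes of -0.25 or less. The first 3 blocks of chromosome 19, from 0.281 to 12.6 Mb, had medians of 0.47, 0.48 and 0.48, while 3 blocks farther along, from 29.9 to 47.8 Mb, had medians of -0.40, -0.35 and -0.48. The last 2 blocks of the chromosome were level, both at -0.05. On chromosome 9 the block from 35.1 to 85.0 Mb stood at 0.50, with 33 of 40 genes above 0. On chromosome 15 the block from 75.8 to 89.7 Mb stood at -0.36, with all 40 genes below 0, and the chromosome as a whole at -0.33. B2M (block median -0.28 on chromosome 15) and APOE (-0.48 on chromosome 19) lie in such blocks, with log2 ratios of their own far below them. The class I genes on chromosome 6 lie in a block at -0.07 and AREG in a block at 0.13. DNA copy number was not measured.

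A score was then computed for each cell as the log2 share of 253 genes in the higher blocks over that of 657 genes in the lower blocks, leaving out every gene past 1.5-fold. In the 1195 cells between the groups, which were not used to choose the blocks, the score fell into 2 humps around -0.19 ± 0.16 and 0.46 ± 0.18 (mean ± SD of the fitted curves over cells), with the gap at 0.19. Above the gap lay 421 of 599 HLA-B low cells (70.3%, exact interval 66.4 to 73.9) and 14 of 599 HLA-B high cells (2.34%, 1.28 to 3.89), which the choice of blocks favours. Between them lay 176 of 597 cells of the second quartile (29.5%) and 44 of 598 of the third (7.36%). The median HLA-B level was 1.99 per 10000 UMIs in the 655 cells above the gap and 6.11 in the 1738 below. The median depth was 37930 UMIs above and 33358 below, and 127 cells lay within 0.1 of the gap. The HLA-B low group was thus mostly drawn from cells above the gap, and the rest from below it.

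**Figure D4:**
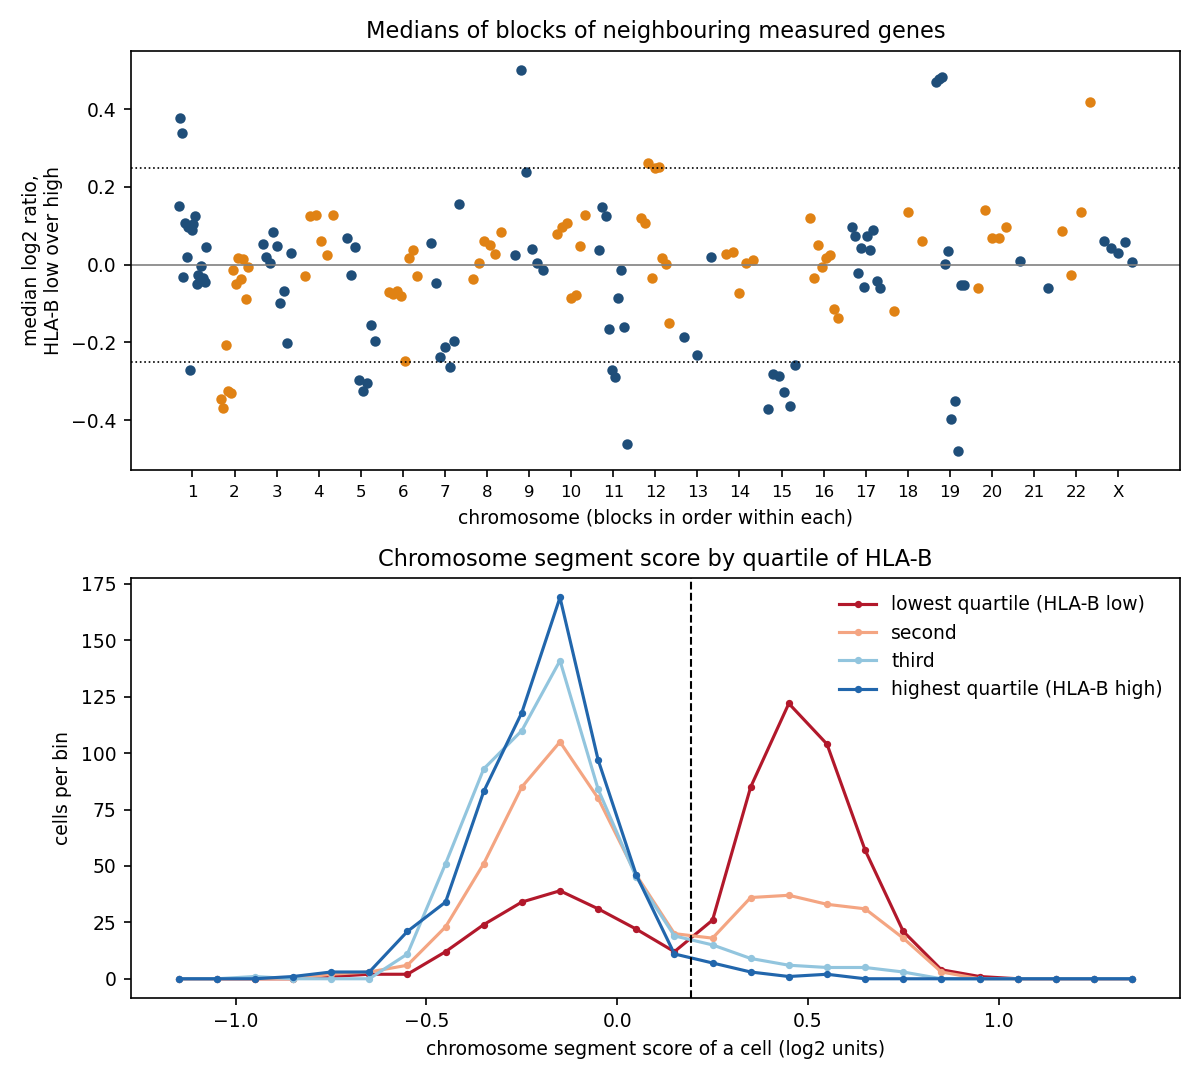
Top, the median log2 ratio of HLA-B low over HLA-B high cells (y) for each block of neighbouring genes, in order within each chromosome (x), with dotted lines at 0.25 and -0.25. Bottom, the number of cells (y) by chromosome segment score (x) for each quartile of HLA-B, with the dashed line at the gap of 0.19, above which lie 70.3% of HLA-B low and 2.34% of HLA-B high cells.

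Quartiles were therefore also taken within each side of the gap, 164 low against 164 high cells above it and 435 against 435 below it. No block then reached 0.25 or -0.25 on either side. The score that set the sides was built from the blocks past these values, so the split itself favours this. Above the gap 2.03% of 6464 genes were called lower and 0.248% higher, and below it 1.88% and 0.551% of 6535. The groups of the sides are not those of all cells. HLA-B itself was at 76.5 CPM in low and 494 CPM in high cells above the gap (log2 ratio -2.67). Below it HLA-B was at 271 and 1324 CPM (-2.28), against 151 and 1190 CPM over all cells (-2.97). The sizes of other ratios therefore come from unlike splits in HLA-B. Class I stayed lower on both sides, called for 3 of 4 measured genes above the gap and 4 of 5 below. HLA-E stayed under 1.5-fold on each side (-0.54 above and -0.58 below), and HLA-F was under 20 CPM above the gap. Of the loading genes, 3 of 12 were called lower above and 7 of 13 below. B2M was at 505 CPM in low and 936 CPM in high cells above the gap (log2 ratio -0.89) and at 929 and 2292 CPM below it (-1.30). HLA-C was at -0.96 above and -1.45 below, and TAP1 at -1.13 and -1.08. Of the interferon-stimulated genes, 13 of 27 were called lower above the gap and 23 of 32 below, and none higher on either side.

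No EGF ligand was called higher within either side, and most other genes called higher over all cells were not called there either. AREG was at 406 CPM in low and 350 CPM in high cells above the gap (0.21) and at 127 and 141 CPM below it (-0.14). Its level thus differed between the sides by more than between the groups within either. EREG kept its direction, at 0.52 above (interval of the ratio 1.31 to 1.59) and 0.26 below (1.08 to 1.34). EPGN was at 0.31 above and, under 20 CPM, at 0.42 below. FOS was at 0.66 above and -0.14 below, DUSP1 at 0.36 and 0.13, and ANXA1 at 0.24 and 0.02. IFITM3 was at 28.2 CPM in low and 38.1 CPM in high cells above the gap and at 6.71 and 7.30 CPM below it, so its difference turned above the gap (-0.42). Below it the gene was under 20 CPM and the interval of its ratio, 0.70 to 1.21, included 1. VIM was at -0.33 above and 1.46 below, and CDH2 at -0.67 and 1.69.

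Other lists also differed from their counts over all cells. Over all genes, 2.03% were called lower and 0.248% higher above the gap, and 1.88% and 0.551% below it. Of the YAP and TAZ targets, 3 of 15 were called lower above the gap (median -0.31) and none of 19 in either direction below it (median -0.01), with F3 at -0.67 above and -0.21 below and AXL at -0.82 and -0.12. Of the 13 early response genes, 1 was called higher above the gap (median 0.09) and none in either direction below it (median -0.01). The metallothionein and NRF2 genes had 4 of 18 lower above the gap (median -0.27), but 4 of 20 higher and none lower below it (median 0.07). Of the mesenchymal genes, 12 of 25 were called lower and none higher above the gap, and 1 of 23 lower and 3 higher below it. Of the basal and epithelial genes, 5 of 37 were called lower above the gap and 12 of 41 below, and none higher on either side. The medians of the cell-cycle lists kept their direction, G1/S at 0.17 above and 0.23 below and G2/M at -0.11 and -0.16.

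APOE and IGFBP3 depended on the side. Above the gap APOE was at 2.93 CPM in low and 23.4 CPM in high cells (-2.63), and below it at 76.9 and 160 CPM (-1.05). IGFBP3 was at 20.4 and 56.6 CPM above the gap (-1.43), but at 204 and 191 CPM below it (0.09). KRT81 (-0.73 above and -0.51 below) and CD24 (-1.16 and -0.88) kept their direction. Among 6137 genes measured on both sides, which share no cells, 53 were called lower on both, 42.4% of the 125 above and 60.2% of the 88 below. They included B2M, HLA-C, TAP1, PSMB8, PSMB9, ISG15, BIRC3, PLAAT4, APOE, CD24 and SLPI. With 6 genes called higher above and 27 below, the higher genes were too few to compare between the sides.

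The same split was made in other lines with enough HLA-B. In the oligo groups of the BT-474 and MDA-MB-453 type, 60.2% and 87.0% of cells had no HLA-B UMI, and no quartiles could be taken. HLA-B itself was at a log2 ratio of -4.70 in Hs578T, -3.69 in MDA-MB-231 and -3.60 in MDA-MB-436, against -2.97 in HCC38. The splits were thus not alike in HLA-B, and the sizes of other ratios are not directly comparable. B2M was lower in HLA-B low cells of Hs578T (log2 ratio -0.84), MDA-MB-231 (-0.80) and MDA-MB-436 (-0.68), and PSMB9 was at -1.74, -1.68 and -1.43 in that order of lines. Genes called lower made up 1.17% of those measured in Hs578T, 3.83% in MDA-MB-231 and 1.2% in MDA-MB-436, and genes called higher 0.238%, 1.27% and 0.212%. Of 4604 genes measured in all 4 lines, 7 were called lower in every one, among them B2M, HLA-C, PSMB8, PSMB9, IL32 and PARP14. Of the genes called lower in HCC38 and measured in both lines, 10.6% were also called lower in Hs578T, 16.7% in MDA-MB-436 and 19.7% in MDA-MB-231, which is 56.4%, 59.3% and 29.4% of the lower genes of those lines. AREG did not reach 20 CPM in Hs578T or MDA-MB-436 and was at 0.03 in MDA-MB-231. The differences between lines were not tested. Blocks at 0.25 or more and at -0.25 or less numbered 9 and 21 of 167 in HCC38, 2 and 0 in Hs578T, 2 and 1 in MDA-MB-436 and 4 and 3 in MDA-MB-231.

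**Figure D5:**
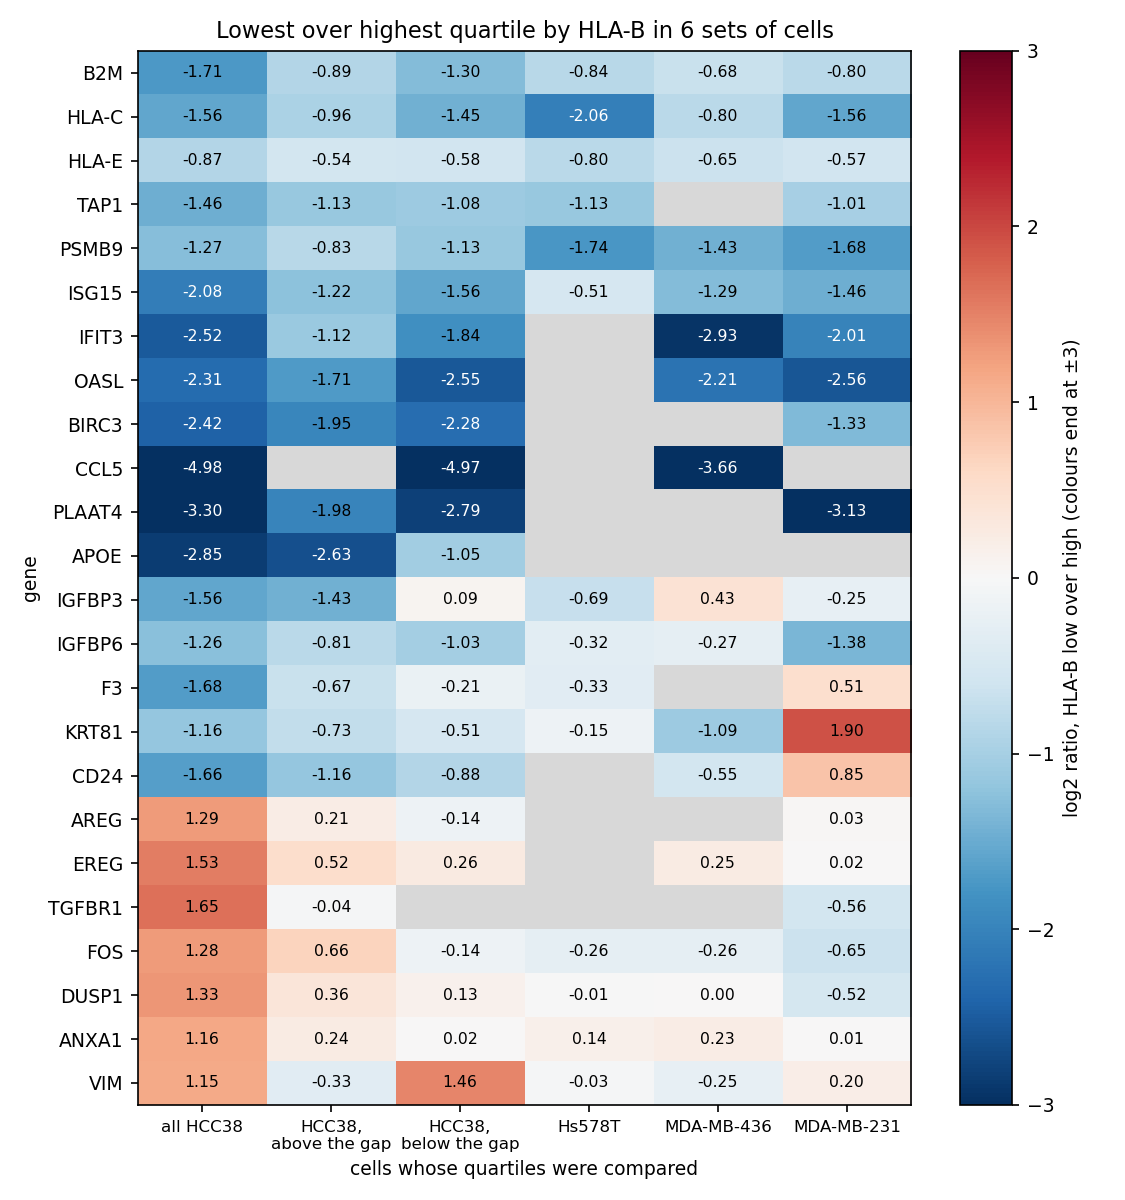
Log2 ratio of the lowest over the highest quartile by HLA-B (colour and number) for 24 genes (rows) in all HCC38 cells, in HCC38 cells above and below the gap, and in 3 other lines (columns), with grey where a gene reached 20 CPM in neither group. The rows from B2M to ISG15 are below 0 in every measured column, whereas AREG, TGFBR1 and FOS are above 1 in all HCC38 cells only.

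Over single HCC38 cells thinned to 10000 UMIs, the rank correlation of HLA-B with B2M was 0.64, with HLA-C 0.48, with PSMB9 0.30 and with TAP1 0.20 (Spearman, 2393 cells). For B2M it was 0.38 over 1711 Hs578T cells and 0.27 over 2097 MDA-MB-436 cells. The cells of a line share a library, and counting error lowers such values more where a gene has few UMIs.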

How the data were processed

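Barcodes of the HCC38 oligo (suffix 4, oligo 306) were taken from 1 matrix of raw UMI counts over 36601 genes, 12 oligos and 17605 barcodes, deposited by the authors. Per the file headers, Cell Ranger 6.1.2 made it, and the submitters' processing notes name GRCh38 (hg38). Settings of cell calling and oligo assignment are not stated in the sources used here. The labels do not say which oligo marks which line: suffix 4 was matched to HCC38 by KRT81, SERPINB5, CDH3 and ITGB6, and MDA-MB-436 by elimination. Of 2670 suffix 4 barcodes, 184 had under 10000 gene UMIs, 18 over 20% mitochondrial UMIs and 75 under 80% of their own oligo. The cells used held 91424216 gene UMIs. Barcode sequences of suffix 4 also found in the other capture numbered 10.

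Counts were summed per group and scaled to CPM (pseudocount 1, at least 20 CPM in either group, HLA-B left out). Ratio intervals are exact conditional binomial and shares exact Clopper-Pearson, at 95%. UMIs are not free of capture and amplification error, which the intervals do not cover. Doublets (Scrublet in scanpy 1.11.5, expected rate 0.06, 128 of 7796 barcodes of the capture) stayed in the main groups. Of the HCC38 cells, 71 were doublets or held another line's transcripts. The ratio and its intervals were tested on simulated data. Chromosome arms were replaced by blocks of 40 genes, since the reference used gives no arms. Ratios were computed in Python 3.11.15 with scipy 1.17.1, the gap with scikit-learn 1.9.0, and TMM factors with edgeR 4.0.16, which ran no test. Named genes are HLA-B, B2M, APOE, IGFBP3, ANKRD1 and AREG, the 15 lowest and 15 highest genes of at least 50 CPM, the 2 lowest and 2 highest of each list, and all measured class I, loading, IGF and EGF ligand genes. Some genes that this rule names are not reported here. The members and the 35 lists were chosen with earlier results of these data known. Genes named as called on both sides of the gap or in all lines, and DDX60 as an interferon gene, were picked after their values were seen.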

Additional observations from a re-analysis of the deposited data

How the results depend on the processing

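No paired analysis was possible because HCC38 was 1 culture in 1 capture and the result comes from no test. B2M stayed lower under all 20 alternatives, 4 of them chosen after seeing the data, with log2 ratios from -2.28 to -0.89.

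The counts of genes past 1.5-fold, 396 lower and 243 higher, stayed within 1.5 times under most alternatives. They were 635 and 393 with the lowest and highest decile, 201 and 132 among genes of at least 50 CPM, 1501 and 639 with no filter on low values, and 259 lower with a pseudocount of 10 CPM. With quartiles within deciles of the segment score 96 were lower and 17 higher, among cells below the gap 123 and 36, and above it 131 and 16. TMM moved the median of all genes by 0.08 and gave 294 lower and 351 higher genes.

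B2M was at -1.47 with tertiles, -2.28 with deciles, -1.53 with HLA-B thinned to 10000 UMIs, -1.67 within deciles of depth, -1.66 within deciles of the mitochondrial share, -1.67 within deciles of the cell-cycle share and -1.63 with TMM. It was at -1.20 within deciles of the segment score, -1.30 below the gap, -0.89 above it and -1.62 without the 5% of cells highest in interferon-stimulated genes.

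Log2 ratios changed sign within deciles of the segment score for IGFBP3 (0.0239), AREG (-0.13), SERPINA3 (-0.29), CXCL1 (-0.21) and IFITM3 (-0.31). Below the gap they changed sign for IGFBP3 (0.0897), AREG (-0.14), SLC16A7 (-0.0594), FOS (-0.14), SERPINA3 (-0.14), TRIM33 (-0.00543), CXCL1 (-0.0632), MFSD12 (-0.0447), IFITM3 (-0.10) and the IGF list median (0.0125). There the intervals of the ratios of SLC16A7, SERPINA3, TRIM33, CXCL1, MFSD12 and IFITM3 included 1, so these genes were level. Above it they changed sign for TGFBR1 (-0.0360), SERPINA3 (-0.0937), VIM (-0.33), CXCL1 (-0.12), IFITM3 (-0.42) and CDH2 (-0.67), where the intervals of TGFBR1, SERPINA3 and CXCL1 included 1. The cause was not tested. Of the 81 described genes past 1.5-fold, 32 stayed past it in the same direction within deciles of the segment score, 35 below and 37 above the gap, 77 without the cells highest in interferon-stimulated genes, and 74 to 81 under the other 16. HLA-B UMIs were few in low cells, with a median of 5 per cell, so counting error blurs the lower border.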

Other observations

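Of genes under 50 CPM, chosen after their values were seen, the highest ratios belonged to OLFML3, a secreted matrix protein, and PTGFR, a prostaglandin receptor. OLFML3 was at 27.0 CPM in HLA-B low and 1.85 CPM in HLA-B high cells (log2 ratio 3.30), with 12.4 and 4.07 CPM in the second and the third quartile. PTGFR was at 28.7 CPM in low and 2.43 CPM in high cells (3.11). The transcriptional repressor BHLHE41 was at 43.3 and 8.06 CPM (2.29), and the neurotrophin receptor NTRK2 at 24.96 and 5.18 CPM (2.07). These genes reached 20 CPM in low cells only, so the filter favours such ratios. Their ratios within the sides of the gap are not given.

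Mitochondrial transcripts were slightly higher in HLA-B low cells, with a median log2 ratio of 0.26 over 13 genes and none called. Heat shock chaperones had a median of 0.30 over 12, with HSP90AA1 at 4215 CPM in low and 2566 CPM in high cells (0.72). Of 20 metallothionein and NRF2 genes, 4 were called lower, among them MT1M (15.6 CPM in low and 43.1 CPM in high cells, -1.41), although below the segment gap none was lower and 4 were higher. Of 17 hypoxia and glycolysis genes, 1 was called lower (EGLN3, -1.12) and 1 higher (ENO1, 0.60), against 5.96% and 3.66% of all genes. Of 7 surface ligands of T and NK cells, only NECTIN2 was called, at 43.4 and 74.9 CPM (-0.77). It lies in a block of chromosome 19 with a median of -0.48. Within the sides it was at -0.17 above and -0.03 below the gap, and both intervals of its ratio included 1.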
